A study of Mus musculus with 12 samples.

Results

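The satellite repeat loci of the mouse genome (build mm10) were examined in total RNA of Ddx55-KO and wild-type (WT) CD4+ T cells. Members were all rows of the deposited repeat count table whose class is Satellite: 15836 of 3156417 repeat loci, in 8 subfamilies, covering 2.80 Mb. The cells were naive CD4+ T cells from spleen and pLN of Ddx55-KO and WT mice, and Ddx55 encodes a DEAD-box RNA helicase. They were taken unstimulated (0 h) or following stimulation for 8 h or 24 h on plate-bound antibodies to CD28 at 2.5 ug/ml and CD3 at 5 ug/ml, which trigger costimulation and the T cell receptor. Each of the 6 groups of genotype and time held 2 libraries, 12 in all. The labels do not say how or in which cells Ddx55 was removed, or the age and strain of the mice, so genotype and animal background cannot be told apart. Separate animals are not stated for the 2 libraries within each group, and p-values therefore measure only the spread between these samples, which may be technical.

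Satellites are repeats whose units lie head to tail. In the mouse the major satellite, listed here as GSAT_MM, forms the heterochromatin beside the centromeres, which is silenced by histone H3 lysine 9 methylation, HP1 proteins and DNA methylation and gives little RNA in most normal cells. The Satellite class of a repeat annotation also takes in short dispersed elements, some of which lie inside genes, so that RNA counted at such a locus can be part of an ordinary gene transcript.

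Short stretches of example loci are given first, because the subfamilies differ in kind. Only loci inside transcripts could be read, so the leading GSAT_MM locus and the intronic and intergenic ZP3AR loci named below are not shown. The MMSAT4 loci shown here lie in coding exons of zinc finger genes: Ikzf1 (Ikaros, a lymphoid transcription factor), Egr2 and Gfi1 (induced by T cell receptor signals), Zfp69 (a KRAB zinc finger gene) and Zfp367. The ZP3AR locus lies in an exon of a non-coding transcript of Kri1, and the GSAT_MM stretch lies in Gm10800, a predicted gene. Sequences were copied from the GENCODE transcripts of GRCm38, the assembly that mm10 names, and run 5' to 3' along the gene. Capitals mark matches to ACNGGNGANAANCC (N is any base), letters that can spell the linker between neighbouring C2H2 zinc fingers.
MMSAT4 in Ikzf1 (chr11:11754007-11754117, + strand): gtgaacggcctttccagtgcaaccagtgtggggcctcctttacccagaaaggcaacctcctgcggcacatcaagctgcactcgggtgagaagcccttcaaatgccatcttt
MMSAT4 in Egr2 (chr10:67540644-67540777, + strand): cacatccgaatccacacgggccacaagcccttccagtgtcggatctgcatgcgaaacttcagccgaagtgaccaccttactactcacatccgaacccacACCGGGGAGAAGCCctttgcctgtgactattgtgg
MMSAT4 in Gfi1 (chr5:107717801-107717918, - strand): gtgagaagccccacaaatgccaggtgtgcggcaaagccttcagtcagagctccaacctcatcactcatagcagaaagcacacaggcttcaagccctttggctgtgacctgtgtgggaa
MMSAT4 in Zfp69 (chr4:120930795-120931094, - strand): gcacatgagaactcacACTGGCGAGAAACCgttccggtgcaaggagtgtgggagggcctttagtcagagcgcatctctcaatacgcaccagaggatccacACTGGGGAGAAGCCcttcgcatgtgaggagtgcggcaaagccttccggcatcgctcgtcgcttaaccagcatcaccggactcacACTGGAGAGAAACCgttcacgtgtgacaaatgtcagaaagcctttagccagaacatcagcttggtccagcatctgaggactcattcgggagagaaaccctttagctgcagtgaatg
MMSAT4 in Zfp367 (chr13:64144160-64144274, - strand): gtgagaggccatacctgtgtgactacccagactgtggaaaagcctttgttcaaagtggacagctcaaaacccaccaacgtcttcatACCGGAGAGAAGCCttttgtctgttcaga
ZP3AR in Kri1 (chr9:21278978-21279091, - strand): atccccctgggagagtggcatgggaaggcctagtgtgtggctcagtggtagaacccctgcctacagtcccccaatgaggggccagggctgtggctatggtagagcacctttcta
GSAT_MM in Gm10800 (chr2:98666741-98667040, - strand): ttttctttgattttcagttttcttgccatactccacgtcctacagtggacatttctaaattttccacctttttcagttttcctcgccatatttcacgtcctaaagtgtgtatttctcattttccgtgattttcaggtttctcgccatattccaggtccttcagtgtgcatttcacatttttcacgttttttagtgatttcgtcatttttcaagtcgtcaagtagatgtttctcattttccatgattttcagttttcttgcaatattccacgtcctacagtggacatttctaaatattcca

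The linker letters were searched on both strands in every locus that could be read from a transcript. Of 1100 MMSAT4 loci wholly inside a coding exon, 677 (61.6%) held the motif, all on the sense strand of the gene. Among 232949 coding windows of 146 bases, 1905 (0.818%) held it. It was found in 0 of 75 ZP3AR loci with a sequence. The stretches of MMSAT4 in Ikzf1 and Gfi1 held no exact match. The GSAT_MM loci in Gm26870 repeated with a period of 234 bases, at 94.0% and 92.9% identity between neighbouring units over 584 and 586 bases, and their GC content was 36.8% and 35.7%. The core of the box bound by the centromere protein CENP-B, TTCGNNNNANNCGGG searched on both strands, was in none of the satellite sequences searched. These were 1728 MMSAT4, 75 ZP3AR, 53 MurSAT1 and 2 SYNREP_MM loci, and the GSAT_MM stretches in Gm26870.

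Gene counts per library lay between 16810375 and 19126498, repeat counts between 1205808 and 1962677, and satellite counts between 12510 and 18264. Satellites thus took from 0.906% to 1.14% of repeat counts. Values below are counts per 1000000 gene counts (CPM), and a count of 0 in a library allows up to 3 counts, from 0.157 to 0.178 CPM. Ddx55 stood between 14.6 and 19.9 CPM in KO libraries and between 45.6 and 66.9 CPM in WT libraries, with log2 fold changes of -1.28 at 0 h, -1.89 at 8 h and -1.87 at 24 h (edgeR quasi-likelihood, adjusted p = 2.29e-05, 4.2e-07 and 1.43e-08). The summed level of 14 T cell markers was 8892 and 8403 CPM in KO cells and 9209 and 9202 CPM in WT cells at 0 h, 6306 and 6754 against 6197 and 6749 CPM at 8 h, and 5878 and 5830 against 4606 and 5053 CPM at 24 h. Of these 14 markers 0, 0 and 6 were called higher in KO cells at the 3 times, and 0 lower. Of all 15679 tested genes, 4.92%, 1.88% and 18.7% were called higher at these times, and 0.561%, 0.542% and 19.7% lower. Markers of other cells also differed between genotypes. The 12 neutrophil and granulocyte progenitor markers summed to 525 and 538 CPM in KO cells and 56.9 and 13.1 CPM in WT cells at 0 h, to 17.2 and 47.2 against 1.82 and 1.44 CPM at 8 h, and to 22.3 and 89.0 against 0.746 and 0.531 CPM at 24 h, where 9, 0 and 5 of 12 were called higher. The 8 basophil and mast cell markers summed to 302 and 819 CPM in KO cells and 40.3 and 18.2 CPM in WT cells at 0 h, to 112 and 389 against 10.35 and 7.96 CPM at 8 h, and to 167 and 617 against 9.70 and 8.44 CPM at 24 h, where 1, 0 and 8 of 8 were called higher. The 6 markers of CD8 T and NK cells summed to 71.8 and 45.1 CPM in KO cells and 29.9 and 30.2 CPM in WT cells at 0 h, to 24.7 and 16.3 against 12.9 and 13.2 CPM at 8 h, and to 103 and 52.4 against 25.05 and 20.2 CPM at 24 h (2, 0 and 2 of 6 called higher). The 6 myeloid markers summed to 96.2 and 34.5 CPM in KO cells and 33.2 and 20.7 CPM in WT cells at 0 h, to 43.9 and 25.7 against 16.2 and 15.3 CPM at 8 h, and to 30.3 and 27.9 against 14.6 and 11.3 CPM at 24 h (1, 0 and 1 of 6 called higher). The 7 B cell markers summed to at most 6.80 CPM in any library, and 1, 0 and 0 of the 2 tested were called higher. No marker of these lists was called lower or was at 0 in all libraries. The part of these cells in the KO against WT differences below was not tested.

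RNA counts came from a small share of the satellite loci. Only 1522 of 15836 loci (9.61%) had a count in any library, and together they held 185436 counts. The 10 loci with the most counts held 23.1% of them. MMSAT4 gave 157808 counts (85.1%) from 922 of its 2930 loci, ZP3AR 21710 counts (11.7%) from 550 of 1958 loci, and GSAT_MM 5802 counts (3.13%) from 31 of 246 loci. The other subfamilies were close to the floor: SYNREP_MM had 79 counts over 10 of 183 loci, IMPB_01 29 counts over 8 of 72, and GSAT_MM~SYNREP_MM 8 counts over 1 of 7. No count was listed for the 4 CENSAT_MC loci or the 10436 MurSAT1 loci. MurSAT1 lies mostly on the Y chromosome (9282 loci), with 990 loci on the X chromosome and 161 on unplaced scaffolds. The 9456 satellite loci of the Y chromosome had no count, in libraries where Y-linked genes had between 1 and 4 counts in all.

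By position, 87.6% of satellite counts fell on loci that overlap an exon, 8.17% on loci in introns and 4.29% between genes. MMSAT4 was almost wholly exonic, with 95.8% of its counts on loci in coding exons. Its 1210 coding loci lay in 464 genes, and 874 of them (72.2%) lay in genes named Zfp, Zbtb, Zscan or Zkscan, families of zinc finger transcription factors. Up to 9 loci lay in the same gene, Zfp619, so that loci share host transcripts and are not independent of each other. ZP3AR was mainly intronic: 66.3% of its counts were on its 1176 intronic loci, 27.2% on 86 exonic loci and 6.58% on 696 intergenic loci. GSAT_MM was the reverse of MMSAT4, with 97.6% of counts between genes and 126 of 246 loci on scaffolds not placed on a chromosome. The strand setting and gene annotation of the counting were not given in the sources used here, so RNA of a satellite locus inside a gene and RNA of that gene cannot be told apart.

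Summed over all loci, satellite RNA was close between genotypes at 0 h and 8 h and higher in both KO libraries at 24 h. No test was made at single times. At 0 h it stood at 831 and 955 CPM in KO libraries and 973 and 924 CPM in WT libraries. At 8 h the KO libraries held 859 and 971 CPM and the WT libraries 841 and 859 CPM, and at 24 h the values were 826 and 881 CPM in KO and 706 and 664 CPM in WT cells. The genotypes overlapped at 0 h. At 8 h the lower KO library lay just above the higher WT library, and at 24 h both KO libraries lay well above both WT libraries. The mean log2 CPM of KO libraries minus that of WT libraries was -0.09 at 0 h, 0.10 at 8 h and 0.32 at 24 h. The mean of this difference over times, 0.11, gave p = 0.167 in a two-sided exact permutation test within times (smallest possible p = 0.00926). The same exact permutation test gave 0.38 (p = 0.037) over loci that overlap no exon and 0.95 (p = 0.0278) over loci that overlap no gene, where it was 0.26 (p = 0.0833) without the leading GSAT_MM locus described below. These tests take the libraries of different times as independent. With each number of a genotype as a unit, a mean over its 3 times, the 3 sums each gave p = 0.333 in the exact permutation test, the smallest p that 2 units against 2 allow. In bulk samples, fewer cells of a type and less RNA per cell cannot be told apart.

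No satellite subfamily was called between genotypes at any time. In the edgeR quasi-likelihood fit over all 1221 repeat subfamilies, 0.491%, 0.0819% and 10.6% of subfamilies passed an adjusted p of 0.05 for KO against WT at 0, 8 and 24 h, and 0 of the 3 satellite subfamilies that passed the filter on low counts did so. MMSAT4 stood at 720 and 760 CPM in KO libraries and 619 and 595 CPM in WT libraries at 24 h. The 2 genotypes did not overlap there, but the log2 fold change of 0.29 ± 0.109 (SE) had an adjusted p of 0.0857, against an unadjusted p of 0.0176. It passed with TMM scaling (adjusted p = 0.0491), and in fits without KO 8 h replicate 1 or 2 (0.0411 and 0.0399). At 0 h MMSAT4 was at 646 and 749 CPM in KO and 764 and 770 CPM in WT cells (adjusted p = 0.962), and at 8 h at 765 and 849 against 745 and 773 CPM (adjusted p = 0.878). ZP3AR at 24 h was at 76.7 and 83.5 CPM in KO cells and 68.0 and 63.99 CPM in WT cells, a log2 fold change of 0.28 ± 0.146 (adjusted p = 0.186). The counts per subfamily with an unadjusted p under 0.05 were 0, 0 and 1 over the 3 times, the last being MMSAT4, and DESeq2 called none.

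**Figure D1:**
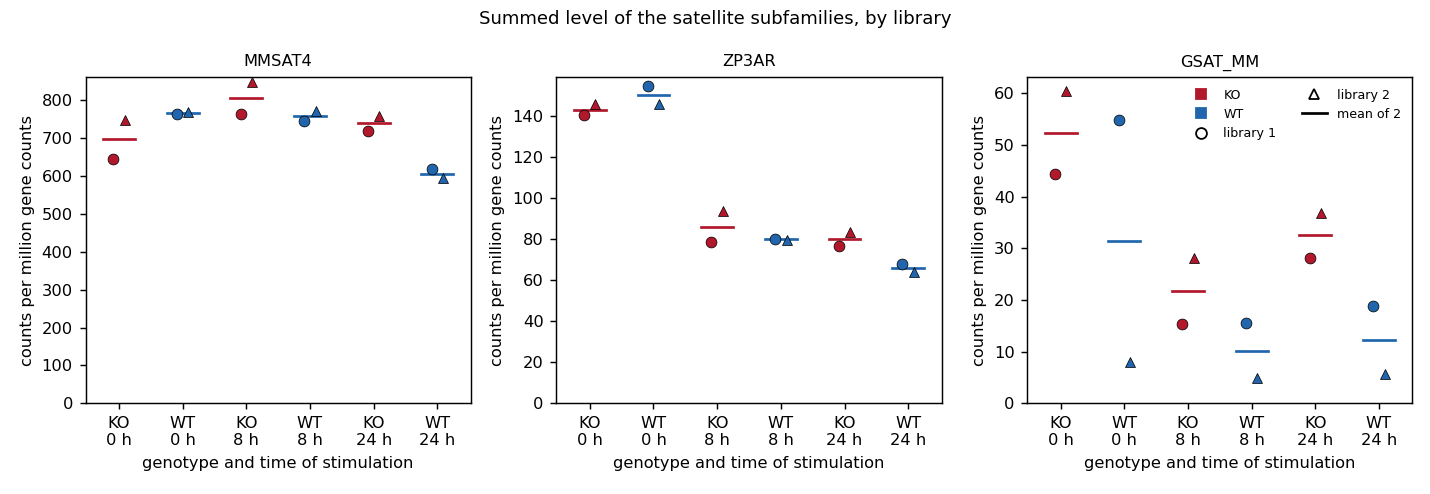
Summed level of MMSAT4, ZP3AR and GSAT_MM in each of the 12 libraries, in CPM, by genotype (KO red, WT blue) and time; horizontal lines are means of 2 libraries. ZP3AR stood between 140 and 154 CPM at 0 h and between 63.99 and 93.4 CPM later, while library 2 of WT lay at 8.05, 4.96 and 5.58 CPM for GSAT_MM.

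ZP3AR was lower in CPM after stimulation in cells of either genotype. No unstimulated cells were sampled at 8 h or 24 h, so stimulation and time in culture cannot be told apart. ZP3AR stood at 140 and 146 CPM in KO libraries at 0 h, 78.6 and 93.4 CPM at 8 h and 76.7 and 83.5 CPM at 24 h. In WT libraries it stood at 154 and 146 CPM, then 80.0 and 79.7 CPM, then 68.0 and 63.99 CPM. Every library at 8 h or 24 h lay below every library at 0 h. The log2 fold change in KO cells was -0.73 ± 0.146 at 8 h and -0.84 ± 0.146 at 24 h (edgeR, adjusted p = 0.00114 and 0.000303), where 23.3% and 32.6% of repeat subfamilies were called. In WT cells it was -0.91 ± 0.146 and -1.18 ± 0.147 (adjusted p = 0.000124 and 4.42e-06), where 41.8% and 61.3% were called, most of them lower (36.4% and 56.3%). ZP3AR thus moved with the larger part of the repeat subfamilies, whose median was -0.80 in WT cells at 24 h. MMSAT4 was lower in WT cells at 24 h, by -0.34 ± 0.109 (adjusted p = 0.013), and had 0.09 ± 0.109 in KO cells (adjusted p = 0.595). Between 24 h and 0 h the KO effect on MMSAT4 differed with an adjusted p of 0.122, where 2.21% of repeat subfamilies were called and 0 of the 3 satellite subfamilies, and scaling by repeat-table totals turned its WT change to 0.34. Same-numbered libraries of a genotype deviated together across times, so the number was also fitted as a block within each genotype, an alternative chosen after seeing the data. Same-numbered KO and WT libraries also deviated together at 0 h and 8 h, so pairing within genotype alone is an assumption. With that block the KO effect was 0.43 ± 0.0984 higher at 24 h than at 0 h for MMSAT4 (edgeR, adjusted p = 0.000461) and 0.35 ± 0.135 for ZP3AR (adjusted p = 0.0394), where 33.5% of repeat subfamilies were called. MMSAT4 in KO cells at 8 h was then 0.21 ± 0.0695 higher than at 0 h (adjusted p = 0.0104, against 0.175 without the block), where 41.1% were called.

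ZP3AR fell at its loci inside genes and, apart from a single locus described below, at its intergenic loci in sum. Intronic ZP3AR loci summed to 101 and 104 CPM in KO libraries and 111 and 103 CPM in WT libraries at 0 h, to 48.8 and 57.9 against 49.3 and 51.2 CPM at 8 h, and to 47.8 and 53.0 against 39.5 and 36.3 CPM at 24 h. Exonic loci stood at 19.4 and 21.3 CPM in KO cells at 24 h, against 35.5 and 34.8 CPM at 0 h, and at 19.7 and 18.3 CPM in WT cells at 24 h, against 37.7 and 37.8 CPM at 0 h. The sum of all intergenic loci did the opposite, through that single locus. It stood at 9.49 and 9.13 CPM in KO cells at 24 h, against 4.32 and 6.59 CPM at 0 h. In WT cells the values were 8.79 and 9.40 CPM, against 5.41 and 4.80 CPM. Summed alone, the intergenic loci were 0.77 higher at 24 h than at 0 h in KO cells (adjusted p = 0.0193) and 0.83 higher in WT cells (adjusted p = 0.00887).

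**Figure D2:**
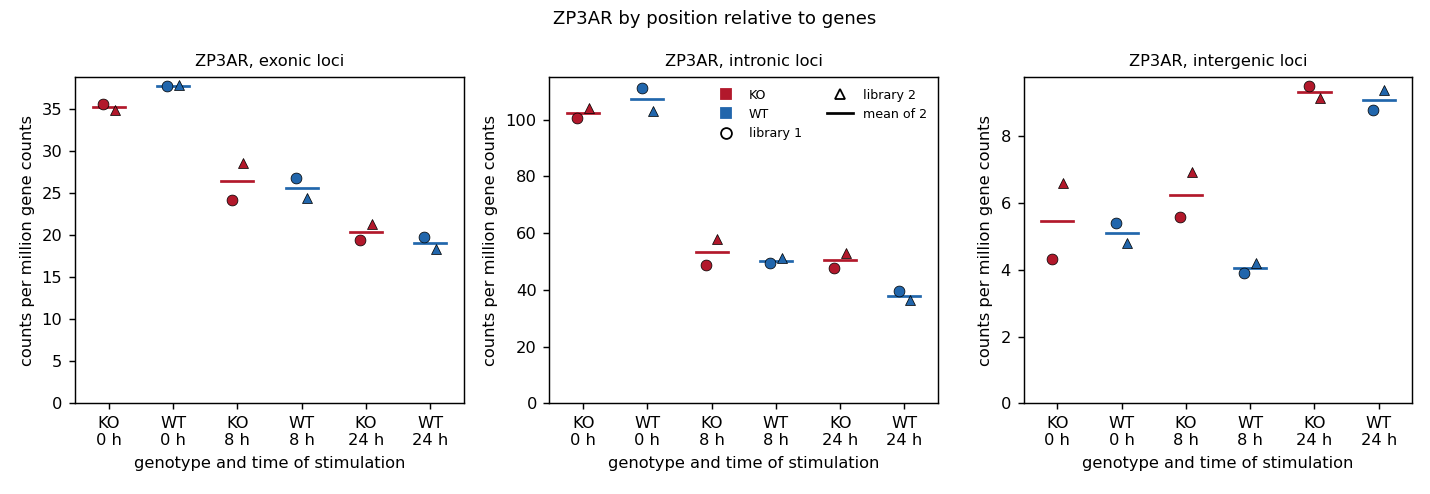
ZP3AR level in each library, in CPM, for loci that overlap an exon, lie in an intron or lie between genes (KO red, WT blue, lines are means of 2). Exonic and intronic loci were highest at 0 h, and the sum of intergenic loci, through the locus beyond Il12rb1, was highest at 24 h.

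A single locus carried the intergenic rise. It lies at chr8:70822232-70822356, 808 bases beyond the end of Il12rb1 (+ strand, chr8:70808449-70821424), which encodes a chain of the interleukin 12 receptor. The locus stood at 0.449 and 0.366 CPM in KO cells and 0.119 and 0.178 CPM in WT cells at 0 h, at 3.38 and 3.91 against 1.45 and 1.15 CPM at 8 h, and at 8.25 and 7.16 against 7.89 and 7.91 CPM at 24 h. Between genotypes the libraries were apart at 0 h and 8 h and overlapped at 24 h. At 0 h this rested on 8 and 7 counts in KO and 2 and 3 in WT libraries (1.41 ± 0.585, edgeR, adjusted p = 0.898). From 0 h to 8 h the KO effect on the locus changed by 0.06 and was not called. The log2 fold change of the locus from 0 h to 24 h was 4.22 ± 0.346 in KO and 5.67 ± 0.411 in WT cells (adjusted p = 1.42e-13 and 2.75e-15). Il12rb1 itself changed by 5.59 and 5.68 over the same interval. Without this locus, intergenic ZP3AR was at 1.24 and 1.97 CPM in KO cells at 24 h, against 3.87 and 6.22 CPM at 0 h, and at 0.906 and 1.49 CPM in WT cells, against 5.29 and 4.62 CPM.

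The 10 satellite loci with the highest mean level were mostly MMSAT4 loci in coding exons of transcription factor genes. The MMSAT4 locus in Ikzf1 (chr11:11754004-11754117, 114 bases) had the highest mean level, 58.5 CPM, or 513 CPM per kb. It held 42.9 and 45.0 CPM in KO cells and 53.5 and 48.0 CPM in WT cells at 24 h, and 49.3 and 69.5 against 66.0 and 77.0 CPM at 0 h. That is 8.08% of the counts of its host gene. The other MMSAT4 loci among the 10 lie in coding exons of Egr2 (21.3 CPM on average), Ctcf (17.3), Gfi1 (15.6), Zfp740 (12.8), Ikzf3 (11.9), Sp1 (10.6) and Zscan25 (10.2). Ctcf encodes the insulator protein, Sp1 a widely expressed activator, and Ikzf3 the Ikaros relative Aiolos. The remaining 2 are the leading GSAT_MM locus (24.3 CPM) and a ZP3AR locus in an intron of Arhgap45 (16.0 CPM).

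The MMSAT4 locus in Egr2 (chr10:67540644-67540777), a transcription factor that restrains T cell activation, was at 1.29 and 2.09 CPM in KO cells and 1.67 and 1.30 CPM in WT cells at 0 h, at 56.9 and 57.6 against 38.7 and 37.2 CPM at 8 h, and at 19.4 and 20.9 against 8.58 and 9.77 CPM at 24 h. Its rise by 8 h was 5.07 ± 0.221 on the log2 scale in KO cells (adjusted p = 5.32e-23) and 4.67 ± 0.222 in WT cells (adjusted p = 2.05e-21), beside 5.08 and 4.36 for the whole gene. The locus in Gfi1 (chr5:107717801-107717926), a transcriptional repressor of lymphoid and myeloid cells, was at 39.7 and 34.9 CPM in KO cells and 31.6 and 28.0 CPM in WT cells at 8 h. At 0 h it stood at 3.48 and 3.14 against 2.32 and 1.83 CPM. Its rise by 8 h was 3.49 ± 0.209 in KO cells and 3.84 ± 0.218 in WT cells (adjusted p = 6.53e-18 and 1.29e-18). The intronic ZP3AR locus of Arhgap45 (chr10:80025116-80025272) went the other way, with 2.82 and 6.23 CPM at 8 h against 35.9 and 38.8 CPM at 0 h in KO cells, and 4.35 and 5.60 against 41.8 and 36.6 CPM in WT cells. Its log2 fold changes were -3.04 ± 0.254 and -2.98 ± 0.253 (adjusted p = 2.55e-10 and 3.3e-10), and those of the host gene were -2.55 and -2.69.

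In all, 364 of the 1522 loci with a count passed the filter on low counts, and 39413 repeat loci were tested together. Against 0 h, 88 satellite loci were called at 8 h and 84 at 24 h in KO cells, 24.2% and 23.1% of those tested, beside 27.6% and 28.3% of all repeat loci. In WT cells 104 and 122 were called (28.6% and 33.5%), beside 31.4% and 39.4%. The shares of satellites lay below those of all repeat loci in these 4 comparisons. Of 65 tested ZP3AR loci, 25 changed in KO cells at 24 h (6 higher, 19 lower) and 33 in WT cells (4 higher, 29 lower). Of all repeat loci, 7.54% were called higher and 20.7% lower in KO cells at 24 h, and 7.18% higher and 32.2% lower in WT cells. Of 296 tested MMSAT4 loci, 57 changed in KO cells (33 higher, 24 lower) and 88 in WT cells (21 higher, 67 lower). The median log2 fold change of tested satellite loci at 24 h was -0.03 in KO and -0.47 in WT cells, and over all tested repeat loci it was -0.50 and -0.93. These comparisons of KO and of WT cells over time share no libraries, but each shares its libraries with the comparisons between genotypes.

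MMSAT4 loci in exons followed their host genes. Over 286 such loci in 190 genes, the log2 fold changes of locus and host at 24 h had a Pearson correlation of 0.74 for KO against WT and 0.90 for WT at 24 h against 0 h. The 13 MMSAT4 loci called between genotypes at 24 h all lay in host genes called in the same direction, as did the 2 at 0 h and 0 of the 2 at 8 h. Over time this held for 58 of 59 at 8 h and 55 of 57 at 24 h in KO cells, and for 70 of 73 and 86 of 86 in WT cells. Locus and host share reads, so this is a description of the counting and gives no test. Intronic ZP3AR loci (42 loci in 36 genes) departed from their hosts in size. Their median was 0.77 for KO against WT at 24 h, where that of the hosts was 0.21, and 33 of 42 had the sign of the host. Between 24 h and 0 h their median was -0.70 against -0.27 for the hosts in KO cells and -1.31 against -0.39 in WT cells. The median difference of locus minus host was -0.11 in KO cells and -0.71 in WT cells.

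**Figure D3:**
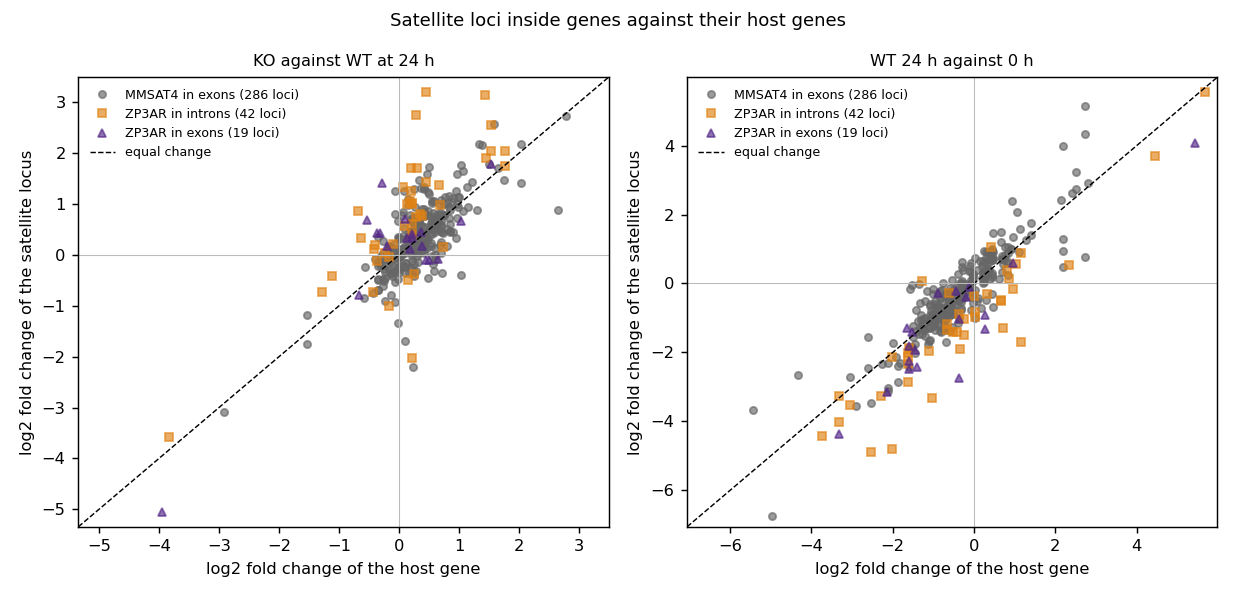
Log2 fold change of satellite loci inside genes against that of their host genes, for KO against WT at 24 h (left) and for WT at 24 h against 0 h (right); each point is a locus and the dashed line marks equal change. MMSAT4 loci in exons lie along the line, and intronic ZP3AR loci lie mostly above it on the left and below it on the right.

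Between genotypes, 2, 3 and 17 satellite loci were called at 0, 8 and 24 h. These are 0.549%, 0.824% and 4.67% of the 364 tested, beside 0.256%, 0.228% and 3.91% of all repeat loci. At 24 h the 17 were 14 higher and 3 lower in KO cells, where 2.5% and 1.41% of all repeat loci were called higher and lower. The median log2 fold change of tested satellite loci was -0.13, 0.07 and 0.35 over the 3 times, and that of all repeat loci -0.11, 0.14 and 0.27. The satellite share at 24 h was close to that of all repeat loci. The KO effect at 24 h differed from that at 0 h in 3 of the 364 loci (Klf7, Zscan25 and Zfp513), where 1.29% of all repeat loci were called. With the number as a block within genotype it differed in 7, these 3 among them, where 2.37% were called. When each of the 4 libraries compared was left out in turn, 6 of the 17 calls at 24 h held every time (Ikzf4, Egr2, Zfp367, Klf7, Gfi1 and Zfp513), as did 1 of 2 at 0 h and 0 of 3 at 8 h.

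At 0 h and 8 h the calls were led by Zfp69, a KRAB zinc finger gene with 2 MMSAT4 loci in its last coding exon. The shorter locus (chr4:120930394-120930513) had 0 and 0 counts in KO libraries and 14 and 36 in WT libraries at 0 h, 0 and 0 against 15 and 16 at 8 h, and 0 and 3 against 2 and 9 at 24 h. No KO library had a count before 24 h. Against a floor of 3 counts over the group, the level in KO cells was at least 18.3-fold lower at 0 h and at least 10.3-fold lower at 8 h (edgeR, adjusted p = 0.000809 and 0.0129). The 8 h call of this shorter locus was lost without KO 8 h replicate 2, and DESeq2 did not call it. At 24 h the ratio was 0.278, with a 95% counting interval from 0.0499 to 1.05. The longer locus (chr4:120930716-120931094) had 3 and 1 counts in KO cells and 11 and 30 in WT cells at 0 h (adjusted p = 0.0815), and 1 and 0 against 9 and 36 at 8 h. There the ratio was 0.0224, with an interval from 0.000554 to 0.131 (adjusted p = 0.00822), and the call was lost without KO 8 h replicate 2 or WT 8 h replicate 2. The whole gene fell by 2.74 ± 0.580 on the log2 scale at 0 h (adjusted p = 0.0304) and had an adjusted p of 0.0627 at 8 h. With no strain or littermate stated, genotype and animal background cannot be told apart at this gene either.

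The locus called higher at 0 h lies in Zeb2 (chr2:44989036-44989157), a transcription factor of effector T cells and myeloid cells. It had 14 and 17 counts in KO libraries and 2 and 1 in WT libraries, a ratio of 9.43 with a 95% counting interval from 2.94 to 48.2. Its adjusted p was 0.0482, and 0.0523 with TMM scaling and 0.434 in DESeq2. The call was lost without KO 0 h replicate 2 and without either WT library of 0 h. The whole Zeb2 gene was 2.15 ± 0.231 higher (adjusted p = 0.00031), in libraries where the summed neutrophil, basophil, CD8 T and NK, and myeloid markers were higher as given above, and their part in it was not tested. At 8 h the ZP3AR locus beyond Il12rb1 was 1.48 ± 0.303 higher in KO cells (adjusted p = 0.00874), a call lost without KO 8 h replicate 2 or either WT library of 8 h. Il12rb1 was at 76.9 and 70.5 CPM in KO cells and 35.8 and 37.6 CPM in WT cells at that time, 1.01 ± 0.101 higher (adjusted p = 0.00018).

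At 24 h the MMSAT4 loci of several transcription factor genes were higher in KO cells. Gfi1 was at 16.2 and 16.5 CPM in KO libraries and 5.70 and 4.35 CPM in WT libraries, a log2 fold change of 1.70 ± 0.196 (adjusted p = 2.29e-08). Egr2, at 19.4 and 20.9 against 8.58 and 9.77 CPM as above, was 1.13 ± 0.184 higher (adjusted p = 2.74e-05). Neither locus overlapped between genotypes, and the whole genes were 1.64 and 0.999 higher. The locus in Klf7 (chr1:64042316-64042441), a Krüppel-like factor gene, was at 4.10 and 3.499 CPM in KO cells and 0.906 and 0.372 CPM in WT cells, 2.56 ± 0.401 higher (adjusted p = 1.43e-05). The locus in Ikzf4 (chr10:128640206-128640313), which encodes Eos, an Ikaros relative of regulatory T cells, was at 3.40 and 4.70 CPM in KO cells and 0.853 and 0.956 CPM in WT cells (2.15 ± 0.430, adjusted p = 0.000791). Zscan25 (chr5:145290545-145291072) was at 13.2 and 10.99 against 5.81 and 6.001 CPM (1.03 ± 0.204, adjusted p = 0.000659), and its adjusted p was 0.0523 without KO 24 h replicate 1. In these loci, too, every KO library lay above both WT libraries. The loci are given here because they were called at 24 h, so their separation adds no support.

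Further loci called higher at 24 h had fewer counts. Hic1 (chr11:75165737-75165869), a transcriptional repressor gene, had 39 and 21 counts in KO libraries and 5 and 4 in WT libraries, 2.73 ± 0.621 higher (adjusted p = 0.00404). Zfp874a (chr13:67443132-67443289) had 38 and 25 against 8 and 6 counts (2.18 ± 0.578, adjusted p = 0.0181), and Zfp768 (chr7:127343741-127344103) had 26 and 32 against 7 and 6 counts (2.17 ± 0.654, adjusted p = 0.0472). The Zfp768 call was lost in each of the 4 fits that left out a library, the Zfp874a call in 3 (held without KO 24 h replicate 2) and the Hic1 call in 2 (without KO 24 h replicate 1 or WT 24 h replicate 2). The intronic ZP3AR locus of Arhgap45 was at 5.55 and 7.82 CPM in KO cells and 3.41 and 3.35 CPM in WT cells (0.98 ± 0.255, adjusted p = 0.0226), a call lost without KO 24 h replicate 2 (adjusted p = 0.198). DESeq2 called 9 of the 17.

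The 3 loci lower in KO cells at 24 h were an MMSAT4 locus in Zfp367 and ZP3AR loci in Lig1 and Spc24. Zfp367, a zinc finger gene, had its locus (chr13:64144160-64144276) at 0.539 and 1.31 CPM in KO libraries and 7.99 and 7.81 CPM in WT libraries. This was a log2 fold change of -3.09 ± 0.382 (adjusted p = 1.13e-07), beside -2.92 for the whole gene. In WT cells the locus was 2.92 ± 0.380 higher at 24 h than at 0 h, where it stood at 0.892 and 1.18 CPM. The ZP3AR locus in an intron of Lig1 (chr7:13309816-13310333), the DNA ligase of lagging strand synthesis, had 0 and 6 counts in KO libraries and 31 and 45 in WT libraries (-3.58 ± 0.756, adjusted p = 0.00168). The call was lost without KO 24 h replicate 1 or WT 24 h replicate 2. The ZP3AR locus in a non-coding part of an exon of Spc24 (chr9:21757528-21757651), a kinetochore subunit, had 0 and 1 counts against 20 and 22. Its ratio was 0.0243, with a 95% counting interval from 0.000601 to 0.143 (adjusted p = 0.0193), and its call was lost in each of the 4 fits that left out a library.

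**Figure D4:**
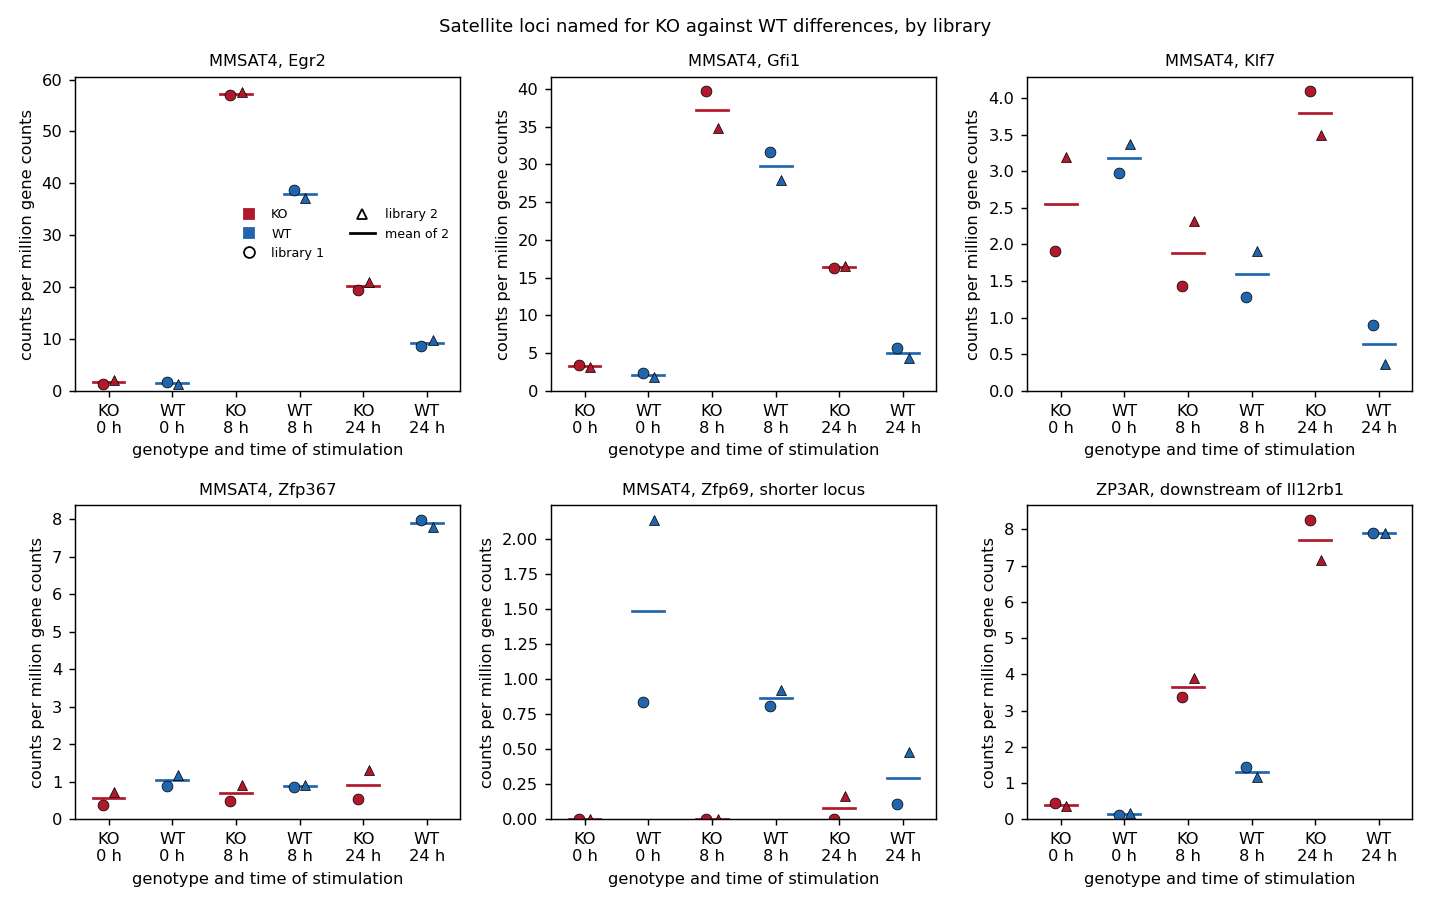
Level of 6 named satellite loci in each library, in CPM (KO red, WT blue, lines are means of 2). Egr2 and Gfi1 peaked at 8 h, Klf7 was lowest in WT cells at 24 h, Zfp367 was high in WT cells at 24 h alone among these groups, and the shorter Zfp69 locus had no count in KO libraries at 0 h or 8 h.

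GSAT_MM, the major satellite, gave few counts, and 91.0% of them came from a locus of 700 bases on an unplaced scaffold (JH584304.1:60177-60876). It lies 487 bases from the start of AC149090.1 (- strand, JH584304.1:52190-59690), a gene without a described role here. This locus had 781 and 1135 counts in KO libraries and 912 and 104 in WT libraries at 0 h, 254 and 445 against 243 and 41 at 8 h, and 449 and 544 against 326 and 45 at 24 h. WT library 2 stood apart at every time. Its level was 0.114, 0.181 and 0.138 times that of WT library 1, while KO library 2 was 1.35, 1.8 and 1.23 times KO library 1. GSAT_MM as a whole was at 44.4 and 60.3 CPM in KO and 54.7 and 8.05 CPM in WT cells at 0 h, and at 28.0 and 36.9 against 18.9 and 5.58 CPM at 24 h. Its log2 fold change at 24 h of 1.41 ± 1.02 had an adjusted p of 0.367. Each numbered library lay lower at 8 h and 24 h than the same number at 0 h. With the number as a block within genotype, GSAT_MM changed by -1.30 ± 0.218 at 8 h and -0.69 ± 0.211 at 24 h in KO cells (edgeR, adjusted p = 0.000867 and 0.0224), where 41.1% and 47.2% of repeat subfamilies were called. In WT cells it changed by -1.42 ± 0.249 and -1.17 ± 0.243 (adjusted p = 0.000749 and 0.00157), where 56.7% and 69.1% were called. Without the block none of these 4 changes passed, with adjusted p between 0.252 and 0.652.

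The split between the WT libraries was shared by near neighbours on the scaffold, but not by a GSAT_MM locus farther along it. An MTD repeat 259 bases beyond the locus had ratios of WT library 2 to 1 of 0.106, 0.184 and 0.107. AC149090.1 stood at 437 and 453 CPM in KO cells and 399 and 161 CPM in WT cells at 0 h, and at 258 and 325 against 147 and 73.5 CPM at 24 h (adjusted p = 0.0942). At 24 h both KO libraries lay above both WT libraries for locus and gene. At 0 h WT library 1 lay between the KO libraries for the locus and below both for the gene. The ratios of WT library 2 to 1 for the gene were 0.404, 0.528 and 0.501 at 0, 8 and 24 h. For the second GSAT_MM locus of the scaffold (JH584304.1:67398-77340) they were 0.995, 1.18 and 2.79, on few counts.

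The other 245 GSAT_MM loci held 523 counts, from 30 of them, and these were higher at 24 h than at 0 h in KO cells. Summed, they stood at 0.561 and 0.993 CPM in KO libraries at 0 h, 1.33 and 2.83 CPM at 8 h and 3.83 and 7.16 CPM at 24 h. WT libraries held 0.476 and 1.89 CPM, then 2.41 and 2.60 CPM, then 1.49 and 3.19 CPM. The change from 0 h to 24 h was 2.80 ± 0.564 in KO cells (edgeR, adjusted p = 0.00129) and 0.98 ± 0.564 in WT cells (adjusted p = 0.144). The difference between these changes had an adjusted p of 0.167. With the number as a block within genotype the changes were 2.81 ± 0.363 in KO and 1.003 ± 0.372 in WT cells (adjusted p = 2.19e-10 and 0.0133), and their difference was 1.81 ± 0.538 (adjusted p = 0.00637). From 0 h to 8 h the sum rose alike with that block, by 1.40 ± 0.401 in KO and 1.18 ± 0.372 in WT cells (edgeR, adjusted p = 0.0032 and 0.0048). The difference between these 8 h changes was 0.215 ± 0.554 (adjusted p = 0.851). Without the block the 8 h changes had adjusted p = 0.1015 in KO and 0.136 in WT cells. KO against WT at 24 h was 1.23 ± 0.495 (adjusted p = 0.104). The copies are near-identical and how reads with several matches were handled was not given in the sources used here, so counts of single GSAT_MM loci are uncertain.

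Of these loci, a block of 9943 bases on the same scaffold (JH584304.1:67398-77340) had most counts, 25 and 54 in KO libraries and 5 and 14 in WT libraries at 24 h, against 2 and 0, and 1 and 1, at 0 h. At 8 h this block had 4 and 13 counts in KO libraries and 10 and 11 in WT libraries. In WT cells it was 3.16 ± 0.961 higher at 8 h than at 0 h (edgeR, adjusted p = 0.0104, and 0.0518 in DESeq2). Between genotypes it was 2.07 higher in KO cells at 24 h (adjusted p = 0.0295). That call was lost without KO 24 h replicate 2 or WT 24 h replicate 1 and in DESeq2 (adjusted p = 0.133). A block at chr11:3101573-3103812 had 72 counts in all and did not share this pattern, with 2 and 3 counts in KO cells and 5 and 5 in WT cells at 24 h. The block in Gm10800 (chr2:98666542-98667332) had 71 counts, with 12 and 13 against 5 and 13 at 24 h and 0 and 3 against 1 and 5 at 0 h.

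**Figure D5:**
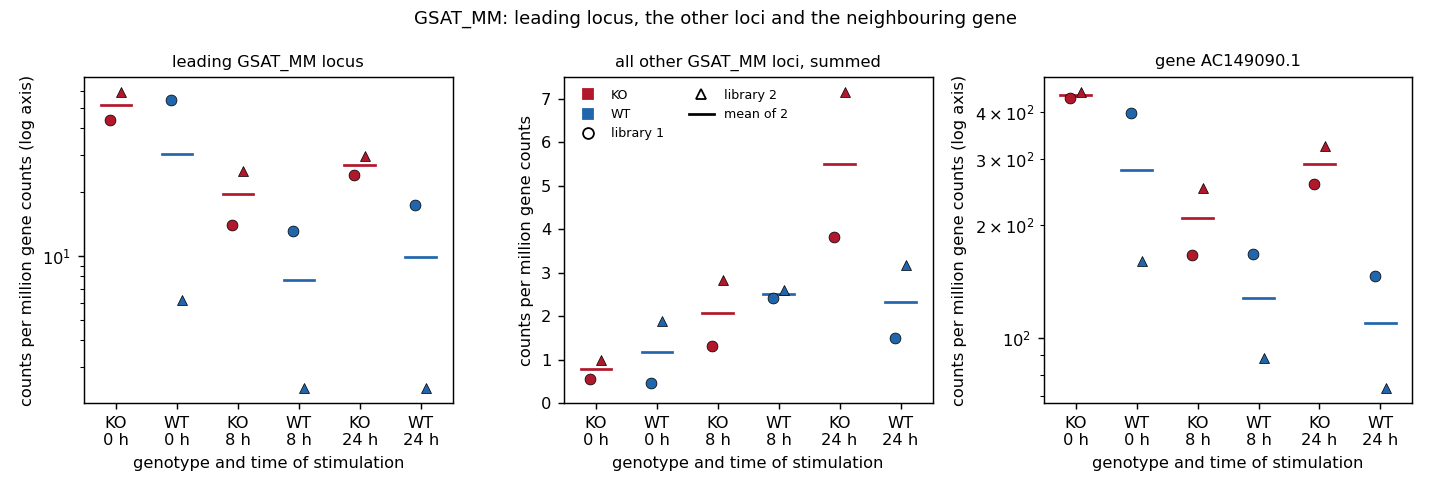
Level of the leading GSAT_MM locus (log axis), of all other GSAT_MM loci summed (linear axis) and of the gene AC149090.1 (log axis) in each library, in CPM (KO red, WT blue, lines are means of 2). WT library 2 lies below the other libraries of its time for the leading locus and the gene, and the other loci reach 3.83 and 7.16 CPM in KO cells at 24 h.

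Most genes of a list that silence or build satellite chromatin were lower in KO cells at 24 h. Of 42 such genes, 8 were higher and 0 lower at 0 h, 0 higher and 4 lower at 8 h, and 7 higher and 28 lower at 24 h, where 5.49%, 2.42% and 38.4% of all 15679 tested genes were called (4.92%, 1.88% and 18.7% higher, 0.561%, 0.542% and 19.7% lower). The median log2 fold change of the list was 0.07, 0.02 and -0.59, and that of all tested genes 0.02, 0.03 and 0.05. Uhrf1, which guides maintenance DNA methylation, was at 39.1 and 42.1 CPM in KO cells and 749 and 692 CPM in WT cells at 24 h (-4.15 ± 0.129, adjusted p = 8.42e-10). Hells, a chromatin remodeller needed for satellite methylation, was at 23.0 and 23.1 against 352 and 315 CPM (-3.86 ± 0.137, adjusted p = 8.45e-10). Dnmt1, the maintenance methyltransferase, was at 168 and 182 against 897 and 837 CPM, and Lmnb1, which encodes lamin B1, at 66.8 and 73.7 against 351 and 329 CPM. At 0 h Uhrf1 was higher in KO cells, at 28.0 and 24.9 against 9.93 and 7.28 CPM (1.62 ± 0.137, adjusted p = 5.72e-05).

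Over time in WT cells, 26 of the 42 genes were higher and 10 lower at 24 h than at 0 h, where 66.5% of genes were called (32.7% higher, 33.9% lower). At 8 h 15 were higher and 16 lower, where 62.1% were called (27.8% higher, 34.2% lower). Uhrf1 rose by 6.39 ± 0.148 and Hells by 5.34 ± 0.151 between 0 h and 24 h in WT cells. At 8 h Cdca7, a partner of Hells, was at 91.2 and 76.1 CPM in KO cells and 119 and 116 CPM in WT cells (-0.49 ± 0.103, adjusted p = 0.0258). Over all 12 libraries the summed satellite level, with 85.1% of its counts from MMSAT4, lay between 664 and 973 CPM. GSAT_MM without its leading locus lay between 0.476 and 7.16 CPM. A link of either level to the listed genes was not tested.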

How the data were processed

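Per the labels, the 12 libraries were made from total RNA after removal of ribosomal RNA and sequenced strand-specifically in pairs of 150 bases. The authors deposited whole-number read counts per gene and per repeat locus, with no normalization; the submitters' processing notes name fastp 0.12.4, STAR 2.7.1a and mm10. The counter, annotation, strand setting, handling of reads with several matches and molecular identifiers were not given in the sources used here, so intervals and floors cover counting error only. All columns matched the labels by genotype, time and number.

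Satellite rows were selected by class and coordinates read as 1-based. Position in genes came from GENCODE vM21 (exon before intron) with bedtools 2.31.1. CPM are counts per 1000000 gene counts. edgeR 4.0.16 in R 4.3.3 (quasi-likelihood, robust, gene-table totals, filterByExpr with a count of at least 10 and a total of at least 15) fitted all repeat subfamilies, all repeat loci and all genes separately, with 6 group means and 6 residual degrees of freedom. For the 9 contrasts, two-sided p-values were adjusted by Benjamini-Hochberg over each whole table and called under 0.05. The procedure was tested on simulated data. The 95% intervals of ratios are exact binomial.

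Every subfamily is named, with the 10 loci of highest mean CPM, up to 5 called loci per direction and KO against WT contrast by fold change, and up to 4 chromatin genes per contrast by p. The second GSAT_MM locus, other GSAT_MM blocks, Zfp513 and loci named only for their stability were named after their values were seen. Members and lists were chosen with earlier results of these data known. Alternatives were DESeq2 1.42.0, TMM and median-of-ratios scaling, repeat-table totals, other filters, loci outside exons or genes, a replicate block and leaving out libraries. The labels do not say what the numbers share. The deviations of same-numbered libraries over genes correlated across times at 0.497, 0.184 and 0.364 in KO cells and 0.381, 0.193 and 0.285 in WT cells, so within a genotype the numbers were taken as paired, and the number as a block within each genotype was added for changes over time after seeing the data. Between KO and WT they correlated at 0.322, 0.398 and 0.0411 at 0, 8 and 24 h and were not taken as paired. The values at 0 h and 8 h lie within the range seen inside a genotype. Groups that share neither genotype nor time correlated at between -0.217 and 0.281. Pairing within genotypes but not between them is therefore an assumption that these correlations do not settle.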

Additional observations from a re-analysis of the deposited data

Results flagged for a closer look

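The effect of the knockout on 3 MMSAT4 loci changed between 0 h and 24 h, by a test of that change itself in the edgeR fit over 39413 repeat loci, where 1.29% of loci were called. The locus in Klf7 (chr1:64042316-64042441) stood at 4.10 and 3.499 CPM in KO cells and 0.906 and 0.372 CPM in WT cells at 24 h, and at 1.91 and 3.19 against 2.97 and 3.37 CPM at 0 h. The change of its KO effect was 2.87 ± 0.533 on the log2 scale (adjusted p = 0.000919), and the whole gene gave 1.99 ± 0.310. The locus in Zscan25 (chr5:145290545-145291072) was at 13.2 and 10.99 against 5.81 and 6.001 CPM at 24 h and at 8.70 and 10.3 against 11.2 and 12.1 CPM at 0 h, a change of 1.33 ± 0.285 (adjusted p = 0.00555). The locus in Zfp513 (chr5:31199694-31199815) was at 9.71 and 8.69 CPM in KO cells and 2.72 and 4.62 CPM in WT cells at 24 h and at 7.52 and 6.01 against 8.27 and 5.33 CPM at 0 h, also a change of 1.33 ± 0.341 (adjusted p = 0.0312). In all 3 loci the KO and WT libraries were apart at 24 h. The loci were picked from these same values, so the separation adds no support. In WT cells the 3 loci fell between 0 h and 24 h, by 2.30 for Klf7, 0.98 for Zscan25 and 0.89 for Zfp513 (edgeR, adjusted p = 1.59e-05, 0.000183 and 0.00403). The host genes were called in the same direction, and locus and host share reads. With the library number as a block within genotype, the adjusted p of the 3 changes was 1.19e-05, 0.000606 and 0.00373. These comparisons share their libraries with those of the report.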

How the results depend on the processing

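With 2 libraries per group, the spread came from all groups together, and loci of a few counts limit most calls. Numbers were not taken to pair KO with WT libraries. The replicate block over both genotypes left every count of called subfamilies as it was, called 3, 3 and 19 loci between genotypes (0, 8 and 24 h) and 106 and 124 over time in WT cells, and gave the class total 0.11 (exact sign permutation, p = 0.281). TMM factors shifted the median gene by at most 0.05 in size. Fits that leave out 3 libraries leave 1 library in each group of that genotype, assumed to vary like the others, and were chosen after seeing the data, as was leaving out the leading GSAT_MM locus. The cause of the changes below was not tested.

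With the replicate block within genotype, also chosen after seeing the data, the subfamilies called numbered 2 and 3 in WT cells at 8 h and 24 h, 3 and 2 in KO cells, and 2 for the KO effect at 24 h against that at 0 h. Leaving out the leading GSAT_MM locus as well gave 2, 3, 3, 2 and 3. Called loci in WT cells were 112 and 127. KO against WT cannot be tested in that fit.

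The class total of KO against WT was 0.0635 with repeat-table totals (exact permutation test, p = 0.037), 0.376 over loci that overlap no exon and 0.948 over loci that overlap no gene. Called subfamilies of KO against WT were 0 in the fit as reported. At 0 h there was 1 without the 3 WT libraries numbered 1 and 1 without the 3 KO libraries numbered 2, and at 8 h 1 without those WT libraries. At 24 h there was 1 with TMM, with only the groups compared, without the WT libraries numbered 1 or without the KO libraries numbered 2, and 2 without the KO libraries numbered 1; leaving out each replicate gave 0 to 1. Over time in WT cells, 1 was called at 8 h, but 2 with repeat-table totals, and 0 over loci outside genes or without the WT libraries numbered 1. At 24 h it was 2, but 1 over loci outside exons or genes or without those libraries, and 1 to 2 when leaving out each replicate. In KO cells, 1 was called at 8 h, but 2 with TMM, median-of-ratios factors or repeat-table totals, and without the WT libraries of either number or the KO libraries numbered 2, and 0 over loci outside genes. At 24 h it was 1, but 2 with repeat-table totals or without the leading GSAT_MM locus. For the change of the KO effect to 24 h it was 0, but 1 with TMM or without the KO libraries of either number, and 0 to 1 when leaving out each replicate. ZP3AR in WT cells at 8 h had adjusted p = 0.094 and 0.0532 without the WT libraries numbered 1 or 2.

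Called loci at 0 h were 1 with TMM, 0 at a mean count of at least 20, 1 in DESeq2, 0 without the WT libraries numbered 2, and 1 to 3 when leaving out each replicate. At 8 h they were 1 at that mean count, 1 in DESeq2, 0 without those libraries and 0 to 3 by replicate. At 24 h they were 9 in DESeq2, 11 and 8 without the WT libraries numbered 1 or 2, and 9 to 22 by replicate. For WT at 8 h they were 67 at that mean count, 63 in DESeq2, 36 and 40 without the WT libraries numbered 1 or 2 and 53 to 111 by replicate, and for WT at 24 h 73, 54, 52 and 73 to 127, without the mean count.

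Directions turned as follows. GSAT_MM at 0 h between genotypes was -0.60 without its leading locus, -0.0633 without the WT libraries numbered 2 and between -0.0632 and 2.701 by replicate, and at 8 h -0.27 without its leading locus. Without that locus it was 1.07 and 0.98 in WT cells at 8 h and 24 h (-2.66 to 0.35 and -2.49 to 0.60 by replicate) and 1.40 and 2.80 in KO cells, and with the block within genotype 1.184, 1.003, 1.399 and 2.812. MMSAT4 was 0.0767 at 0 h between genotypes over loci outside genes, and in WT cells at 8 h 0.0094 with TMM, 0.0837 with median-of-ratios factors, 0.34 with repeat-table totals (adjusted p = 0.000208), 0.00704 without the WT libraries numbered 1 and -0.0420 to 0.0128 by replicate. In WT cells at 24 h it was 0.34 with repeat-table totals (adjusted p = 0.000169). In KO cells it was -0.12 at 8 h over loci outside genes, and at 24 h -0.13 over loci outside exons, -0.18 outside genes and -0.0170 to 0.20 by replicate. ZP3AR between genotypes was 0.0688 at 0 h with repeat-table totals, 0.10 outside genes, and at 8 h -0.0243 without the KO libraries numbered 2 and -0.0243 to 0.23 by replicate. Over loci outside genes it was 0.83 in WT cells at 24 h, and 0.19 and 0.77 in KO cells at 8 h and 24 h. Of the other values for single subfamilies and loci, 1222 kept direction and side of the threshold, 106 were no longer called, and 26 became called.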
